A study of Mus musculus with 4 samples.

Results

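The Ifit genes encode interferon-induced proteins with tetratricopeptide repeats, and the 5 genes Ifit1, Ifit2, Ifit3, Ifit3b and Ifit1bl1 were followed here out of 24411 gene symbols counted. They were taken by symbol, and each symbol was present in the 4 libraries' count files. The cells were BV2, a line of immortalised microglia from mouse, and both groups carry the genotype labelled Pu.1 KO, made with CRISPR-Cas9 and aimed at Spi1, the gene of the myeloid transcription factor PU.1. RNA was read by directional sequencing. One group was treated with lipopolysaccharide (LPS) at 10 ng/ml, and the other was not treated, with 2 libraries in each. For the time in LPS the labels conflict, with 2 h in one field (source name) and 4 h in another (title). They do not say whether the knockout line is a single clone or whether each library is a culture of its own, so the p-values measure a spread that may be technical. Cells with intact PU.1 were not analysed here, so nothing below measures an effect of the genotype.

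IFIT proteins are induced by type I interferon and by some innate immune signals that act without it. IFIT1 binds RNA whose cap lacks the 2′-O-methyl group found on host messenger RNA, and so blocks translation of many viral RNAs. IFIT2 binds AU-rich RNA, and IFIT3 in human cells stabilises IFIT1 and increases its RNA binding. Mouse IFIT1 and IFIT2 also bind the translation initiation factor eIF3. In macrophages and microglia, LPS reaches these genes through the receptor TLR4, the adaptor TRIF and the factor IRF3. A further route runs through secreted interferon beta and its receptor, whose signal acts on a promoter sequence, the interferon-stimulated response element (ISRE).

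Gene counts totalled 3256197 and 3749159 in the LPS libraries and 4502105 and 4115011 in the untreated libraries. Spi1 had 745 and 958 reads in the LPS libraries and 844 and 743 in the untreated ones, so its transcript was present in every library labelled knockout. These raw reads are not scaled to library size and do not compare its level between the groups. The microglial and macrophage markers, 12 genes, summed to 4553 and 4869 CPM, the count scaled to a common library size, in LPS and 2877 and 3000 CPM in untreated libraries. Of 11 tested, 7 were higher and 2 lower in the edgeR test described below, against 26.6% and 25.3% of all genes tested. Cd14 had 1144 and 1234 CPM after LPS against 74.1 and 74.6 untreated, but Tmem119 4.84 and 6.06 against 16.0 and 22.1. P2ry12, a defining marker of homeostatic microglia, was near 0, with 1 and 0 reads after LPS and 12 and 7 untreated. Marker lists of fibroblasts, astrocytes, neurons and lymphocytes summed to under 1 CPM in each library. Of the 4 endothelial markers, Kdr and Vwf held nearly all reads, Pecam1 had none, and the list summed to 49.8 and 34.0 CPM after LPS and 22.7 and 23.2 CPM untreated, whose part in the results was not tested.

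The 5 genes lie in 1 cluster on chromosome 19. In GENCODE vM21 (GRCm38) Ifit2 occupies chr19:34550710-34576419, Ifit3 chr19:34583531-34588731, Ifit3b chr19:34607970-34613401 and Ifit1 chr19:34640871-34650009, on the plus strand. Ifit1bl1 occupies chr19:34592891-34601956 on the minus strand. A sixth relative in the cluster, Ifit1bl2, lies at chr19:34617049-34640743 on the minus strand and is given below as a neighbour. Each of the longest transcripts has 2 exons, apart from 3 in Ifit2 and in Ifit1bl2. The submitters' processing notes name the human build hg19 although the gene symbols are mouse, so these positions describe the genes and not the authors' counting.

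The 250 bases upstream of the annotated RefSeq starts (GRCm38.p6) are shown for the 5 members, because the motif through which interferon acts was searched in them. Capitals mark each match on either strand to the ISRE core, which is GAAA, any 2 bases and GAAA. Every line reads 5′ to 3′ on the gene's own strand and ends at the base before the start. The windows are chr19:34640639-34640888 (plus strand) for Ifit1, chr19:34550444-34550693 (plus) for Ifit2, chr19:34583279-34583528 (plus) for Ifit3, chr19:34607707-34607956 (plus) for Ifit3b and chr19:34601969-34602218 (minus) for Ifit1bl1.
Ifit1: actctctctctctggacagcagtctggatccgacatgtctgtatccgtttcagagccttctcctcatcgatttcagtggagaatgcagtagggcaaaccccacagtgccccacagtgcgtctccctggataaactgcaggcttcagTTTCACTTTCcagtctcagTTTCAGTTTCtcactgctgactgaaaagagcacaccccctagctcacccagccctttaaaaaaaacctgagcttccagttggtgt
Ifit2: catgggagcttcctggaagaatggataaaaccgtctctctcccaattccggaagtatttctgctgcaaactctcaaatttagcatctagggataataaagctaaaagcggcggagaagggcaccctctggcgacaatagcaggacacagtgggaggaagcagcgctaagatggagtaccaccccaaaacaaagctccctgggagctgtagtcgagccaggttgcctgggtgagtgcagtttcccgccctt
Ifit3: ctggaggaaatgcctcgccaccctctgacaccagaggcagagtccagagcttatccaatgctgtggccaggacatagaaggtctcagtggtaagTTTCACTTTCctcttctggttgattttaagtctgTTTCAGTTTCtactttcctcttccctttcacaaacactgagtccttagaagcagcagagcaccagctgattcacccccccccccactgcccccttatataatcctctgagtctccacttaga
Ifit3b: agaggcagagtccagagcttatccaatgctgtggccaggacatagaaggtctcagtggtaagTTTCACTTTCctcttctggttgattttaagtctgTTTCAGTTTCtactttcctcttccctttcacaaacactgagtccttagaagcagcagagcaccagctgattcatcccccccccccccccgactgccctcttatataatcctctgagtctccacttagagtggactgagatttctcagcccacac
Ifit1bl1: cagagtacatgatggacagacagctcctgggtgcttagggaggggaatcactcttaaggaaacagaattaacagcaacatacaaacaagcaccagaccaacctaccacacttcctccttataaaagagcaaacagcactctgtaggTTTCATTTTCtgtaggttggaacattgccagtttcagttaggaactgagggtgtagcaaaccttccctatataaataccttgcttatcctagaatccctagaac

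Ifit1, Ifit3 and Ifit3b each held 2 matches, and these had the same letters in the 3 genes, TTTCACTTTC followed by TTTCAGTTTC. The matches of Ifit1 began 104 and 85 bases before the start, those of Ifit3 156 and 122 bases before it, and those of Ifit3b 188 and 154 bases before it. Ifit1bl1 held 1 match, TTTCATTTTC, 104 bases before the start. Neither of the 2 Ifit2 windows in RefSeq held one, which says only that these letters are not in those windows. Across all promoters the core occurred in 978 of 32851 windows of the same length (2.98%), and 59 windows (0.18%) held at least 2 matches.

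Other motifs were sparse in these windows. The PU box GAGGAAGT, a binding sequence of PU.1, was in both Ifit1bl1 windows and in no other member's, against 2.44% of all windows. It was also in the second window of the neighbour Ifit1bl2, the relative closest to Ifit1bl1 in coding sequence (87.5% identical). The 2 Ifit1bl1 windows are near-identical in sequence around the match. The PU.1-IRF composite, which is GGAA, any 2 bases and GAAA and so overlaps in letters with the ISRE core, was in none of the members' windows, against 2.30%. The kB consensus was in the first Ifit2 window, as GGGAGCTTCC beginning 247 bases before the start, against 7.25% of all windows. Both strands were searched for each motif.

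**Figure D1:**
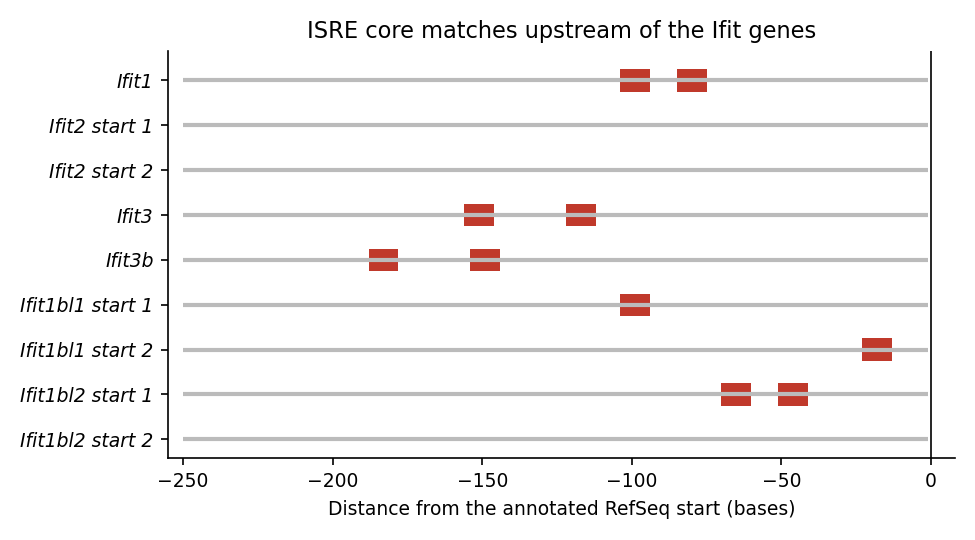
Matches to the ISRE core (red boxes) in the 250 bases before each RefSeq start (grey lines), with the distance from the start in bases on the horizontal axis. Ifit1, Ifit3, Ifit3b and the first start of Ifit1bl2 have 2 matches each, each start of Ifit1bl1 has 1, and those of Ifit2 have none.

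Ifit3 and Ifit3b are near-identical copies, which limits how their reads can be told apart. Their coding sequences are 1212 bases long and differ at 11 positions, 99.1% identical, with an unbroken identical run of 329 bases. Their upstream windows were 96.4% identical over 224 aligned positions. Coding bases 250 to 300, counted from the first base of the start codon (GENCODE vM21), are shown because they hold 4 of the 11 differences, given in capitals.
Ifit3: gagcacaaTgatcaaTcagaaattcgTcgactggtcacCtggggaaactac
Ifit3b: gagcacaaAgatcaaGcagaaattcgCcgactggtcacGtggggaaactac
These substitutions, with the Ifit3 base first, are T258A, T265G, T276C and C288G. Of the 101-base windows along the transcript, the length of 1 read, 68.7% in Ifit3 and 72.9% in Ifit3b occurred in no other gene's annotated transcript. With 300-base windows, a length chosen here for a fragment that both mates span, the shares were 97.9% and 98.2%. The 101-base windows were unique for 100% of Ifit2, 96.8% of Ifit1 and 99.5% of Ifit1bl1. The next closest pair was Ifit1bl1 and Ifit1bl2, with coding identity of 87.5%, while Ifit1 and Ifit1bl1 shared 74.1% and Ifit1 and Ifit2 56.4%.

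All 5 members rose after LPS, where Ifit1, Ifit2 and Ifit3 had between 1195 and 1775 reads per library, against 35 or fewer in each untreated library. The comparison is of LPS with no treatment within 1 genotype. In edgeR's quasi-likelihood test, 51.9% of 9992 genes tested passed at an adjusted p below 0.05, and 26.6% were higher after LPS. Their median log2 fold change was 0.00057, and it shifted to -0.36 when libraries were scaled by size only. Each of the 5 members passed the filter on low counts through the LPS libraries, apart from Ifit2, so the count of members called is read only beside that background. In bulk RNA, more cells that express a gene and more RNA per cell cannot be told apart.

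Ifit1 had 1523 and 1775 reads in the LPS libraries, against 5 and 2 in the untreated libraries. Its level was 527 and 538 CPM after LPS and 0.955 and 0.442 CPM untreated, so the groups were far apart. The fitted log2 fold change was 9.48 (SE 0.186, edgeR adjusted p = 8.1e-40), a 712-fold rise. The SE from DESeq2 was 0.556, so the edgeR value understates the error left by 5 and 2 untreated reads. The rise became 1110-fold without untreated replicate 1 and 536-fold without untreated replicate 2.

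Ifit2 had 1267 and 1397 reads after LPS and 35 and 27 in untreated cells. It was the member with most untreated reads, and its level was 438 and 423 CPM after LPS and 6.68 and 5.96 CPM untreated. The log2 fold change was 6.08 (SE 0.135, edgeR adjusted p = 1.1e-37), 67.6-fold, the smallest fitted rise of the family. Its SE from DESeq2 was 0.214.

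Ifit3 had 1195 and 1455 reads after LPS and 2 and 1 untreated. Its level was 413 and 441 CPM after LPS and 0.382 and 0.221 CPM untreated, with no overlap of the groups. With so few untreated reads its fold is given as a ratio of pooled counts scaled to library size, 1394, with a 95% exact interval of 476 to 6763 that covers counting error only. Its edgeR adjusted p was 4.1e-39.

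Ifit3b, the copy of Ifit3, had 140 and 148 reads after LPS and none in either untreated library. It reached 48.4 and 44.9 CPM, and the floor of 3 reads over the untreated group corresponds to 0.307 CPM, so it was at least 151-fold higher (edgeR adjusted p = 8.3e-24). Ifit1bl1, a relative of Ifit1, likewise had 122 and 146 reads after LPS and none untreated. It reached 42.2 and 44.3 CPM and was at least 141-fold higher (edgeR adjusted p = 3.0e-23). These bounds do not show whether Ifit3b and Ifit1bl1 were induced more or less than Ifit1 and Ifit3.

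**Figure D2:**
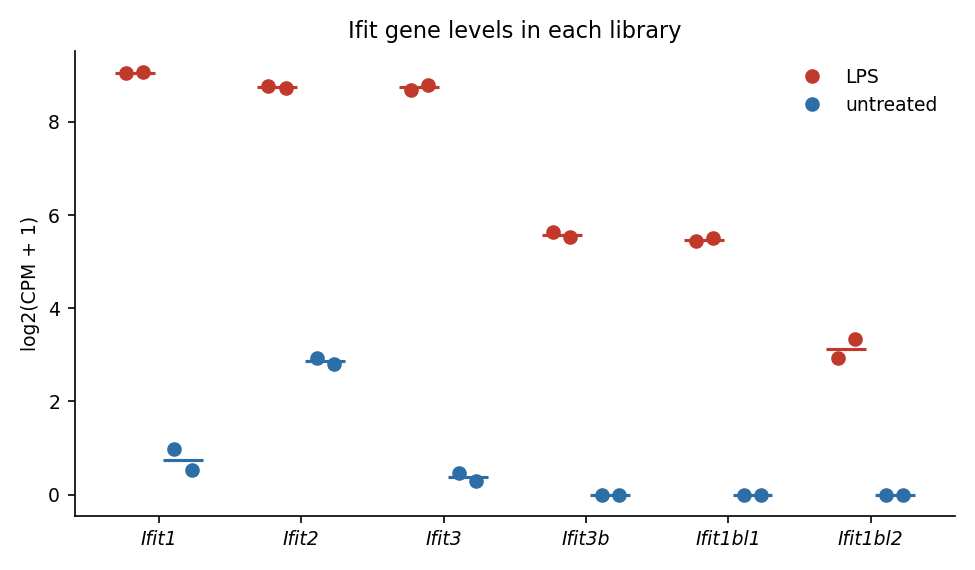
Level of each Ifit gene in every library as log2(CPM + 1), with the 2 LPS libraries in red left of the 2 untreated libraries in blue and lines at the group means of the plotted values. Ifit1, Ifit2 and Ifit3 lie between 413 and 538 CPM after LPS, and the untreated values of Ifit2 are 6.68 and 5.96 CPM. CPM are not divided by gene length.

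The makeup of the family's reads differed between the groups. The members together had 4247 and 4921 reads in the LPS libraries (0.130% and 0.131% of gene counts), against 42 and 30 in the untreated libraries. Summed over members the level was 1480 ± 16.3 CPM after LPS and 7.32 ± 0.987 CPM untreated (SD, n = 2 each). Ifit2 supplied 29.8% and 28.4% of the family's reads after LPS (95% exact intervals 28.5 to 31.2% and 27.1 to 29.7%). In untreated cells Ifit2 supplied 83.3% and 90.0% (68.6 to 93.0% and 73.5 to 97.9%), so the intervals of the groups do not overlap. They cover counting error only, since the reads are not independent molecules.

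After LPS, Ifit1 held the largest share, 35.9% and 36.1%, and Ifit3 28.1% and 29.6%. Untreated, Ifit1 supplied 11.9% and 6.67% of the few reads and Ifit3 4.76% and 3.33%. Ifit3b supplied 3.30% and 3.01% after LPS, and Ifit1bl1 2.87% and 2.97%, with counting intervals that overlap between these 2 genes in each library. For both, 0 of 42 and 0 of 30 untreated family reads leave upper 95% limits of 8.41% and 11.6%, which lie above their shares after LPS. The untreated depth therefore cannot show a change in the share of Ifit3b or Ifit1bl1.

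**Figure D3:**
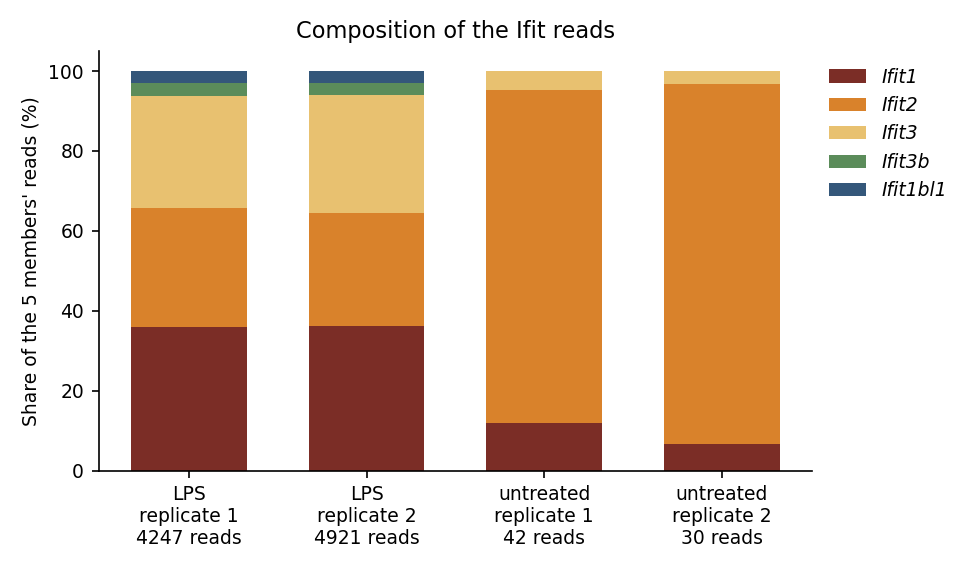
Share of the 5 members' reads (percent) taken by each member, with 1 bar per library and the number of family reads under it. After LPS Ifit1, Ifit2 and Ifit3 each take between 28.1% and 36.1% of the reads, and Ifit2 takes 83.3% and 90.0% of the untreated reads.

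Levels of different genes can be compared only per length, and this changed the order. Per kb of the longest GENCODE transcript, Ifit3 was highest after LPS at 237 and 253 CPM per kb, followed by Ifit1 at 198 and 203 and Ifit2 at 115 and 111. Ifit3b stood at 24.2 and 22.4 CPM per kb and Ifit1bl1 at 19.2 and 20.1. No neighbours in that order overlapped in their 2 libraries. In untreated cells the order was another, with Ifit2 at 1.75 and 1.56 CPM per kb, Ifit1 at 0.360 and 0.166 and Ifit3 at 0.219 and 0.127. There Ifit1 and Ifit3 overlapped. Which transcript the cells used was not measured.

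The Ifit3 copy with the higher count remained higher on each length scale. Ifit3 exceeded Ifit3b by 8.54 and 9.83 times in reads in the LPS libraries, and by 9.78 and 11.3 times per kb of transcript. Per kb of unique 300-base windows the ratios were 10.1 and 11.6, and per kb of unique 101-base windows 10.5 and 12.1. Ifit1 exceeded Ifit1bl1 by 10.3 and 10.1 times per kb of transcript. Ifit3 exceeded Ifit2 by 2.06 and 2.28 times per kb of transcript, and by 3.10 and 3.43 times per kb of unique 101-base windows.

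**Figure D4:**
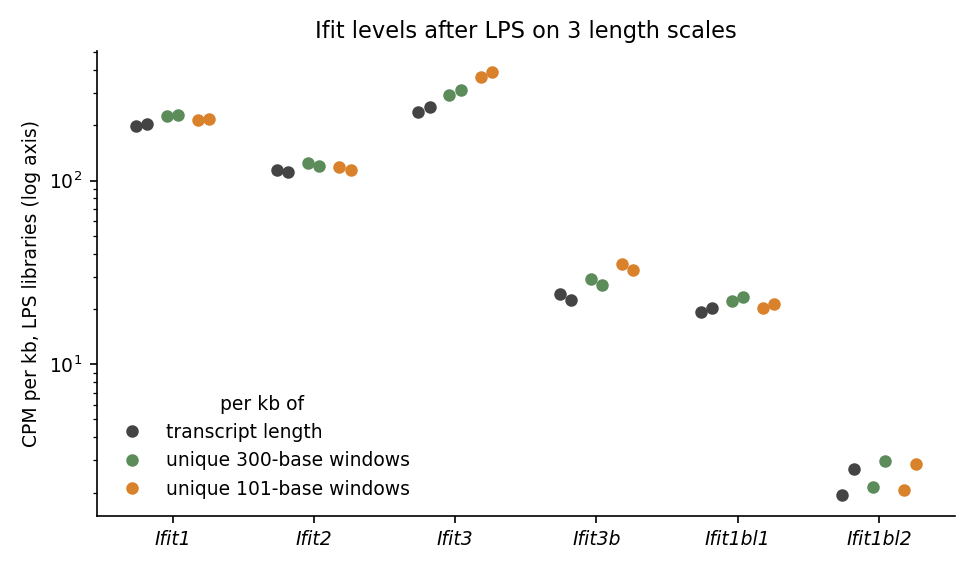
Level of each Ifit gene in the 2 LPS libraries as CPM per kb on a log axis, divided by the transcript length (grey), by the number of unique 300-base windows (green) or by the number of unique 101-base windows (orange). Ifit3 lies highest and Ifit1bl2 lowest on each scale.

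Around the cluster, the genes next to the Ifit members were looked up in RefSeq order, 4 on each side and 2 within it. Of these 10 neighbours 5 were in the count files, and 3 could be tested. Ifit1bl2, within the cluster, had 19 and 30 reads after LPS and none untreated, at least 25.8-fold higher (edgeR adjusted p = 7.0e-11). Its first RefSeq start lies 146 bases from that of Ifit1 on the other strand, their 250-base windows share 145 bases, and both windows hold the same pair of ISRE core matches. Ifit1 exceeded Ifit1bl2 by 102 and 75.0 times per kb of transcript in the LPS libraries.

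Outside the cluster 4 neighbours were in the count files, and the 2 that could be tested rose, against 26.6% of all genes tested. Of these 2, Fas passed the filter on low counts only through the LPS libraries. Lipa, which encodes lysosomal acid lipase, was at 926 ± 9.29 CPM after LPS and 688 ± 25.3 CPM untreated (SD, n = 2 each), up by 0.43 on the log2 scale (SE 0.080), with an edgeR adjusted p = 1.2e-05. With libraries scaled by size alone it did not pass (log2 fold change 0.0695, edgeR adjusted p = 0.539). Fas, a death receptor gene, had 15 and 18 reads after LPS and 3 and 1 untreated (12.2-fold, SE 0.58 on the log2 scale, edgeR adjusted p = 8.0e-07). Its log2 fold change was 4.39 without untreated replicate 1 and 3.14 without untreated replicate 2, against 3.6 with both. Slc16a12, a transporter gene, had no reads after LPS and 3 and 0 untreated. Ch25h, cholesterol 25-hydroxylase, had no reads in the 4 libraries.

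Among the genes that carry the signal from TLR4 to IRF3, 10 were tested, 6 rose and none fell, against 26.6% higher over all genes, with a median log2 fold change of 0.84 against 0.00057 over all genes tested, or 5 and 2 with scaling by library size alone. Cd14, the LPS co-receptor, was at 1189 ± 63.3 CPM after LPS and 74.4 ± 0.388 CPM untreated. Ikbke, a kinase of IRF3, rose 13.8-fold (log2 fold change 3.79, SE 0.117), Tank 2.95-fold and Tbk1 2.32-fold. The call of Ticam1, the gene of TRIF, was lost with DESeq2 (adjusted p = 0.235), with upper quartile or library-size scaling, and without either untreated replicate or LPS replicate 1. Irf3 itself was at 33.7 ± 1.65 CPM after LPS and 38.8 ± 3.69 CPM untreated and missed the threshold (log2 fold change -0.21, SE 0.144, edgeR adjusted p = 0.234). Scaled by library size only, it was lower (edgeR adjusted p = 0.00059).

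Of 12 interferon and JAK-STAT genes 10 were tested, and the 10 rose, against 26.6% of all genes, with a median log2 fold change of 3.22. The call of Ifnar2, an interferon receptor subunit gene, was lost when scaled by library size only (edgeR adjusted p = 0.637) and without untreated replicate 2. Ifnb1, which encodes interferon beta, had 3 and 2 reads after LPS and none untreated, too few for the test. Stat2, a transcription factor gene of the interferon response, had 118 ± 8.40 CPM after LPS and 8.42 ± 2.46 CPM untreated (SD, n = 2 each), 14.2-fold. Irf9, a DNA-binding factor gene of the same response, had 97.8 ± 12.6 CPM after LPS and 8.92 ± 0.191 CPM untreated, 11.0-fold. Irf7, an amplifier of interferon genes, rose 90.7-fold. Usp18, an inhibitor of interferon receptor signalling, rose 191-fold to 201 ± 1.52 CPM after LPS, against 1.03 ± 0.106 CPM untreated. With 5 and 5 untreated reads, Usp18 passed the filter on low counts only through the LPS libraries.

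All 25 antiviral effector genes listed rose, against 26.6% of all genes, and 5 of them had no untreated reads. Others, such as Isg15, Rsad2, Cmpk2 and Oasl2, had fewer than 10 reads in each untreated library. These genes passed the filter on low counts only through the LPS libraries, so a call was close to settled beforehand. The count of 25 is therefore no fair comparison with that share. Their median log2 fold change was 6.41, or 5.20 with those 5 at their bound. It was 5.50 without untreated replicate 1 and 7.04 without untreated replicate 2. Rsad2, which encodes viperin, had 3416 and 3794 reads after LPS and 6 and 4 untreated, and Cmpk2, a mitochondrial nucleotide kinase gene, 1639 and 1920 against 2 and 3. Oasl1, which encodes a protein of the oligoadenylate synthetase family, rose 47.1-fold, and Oasl2 170-fold. This list overlaps with genes already known to have risen in these libraries and is no independent evidence.

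**Figure D5:**
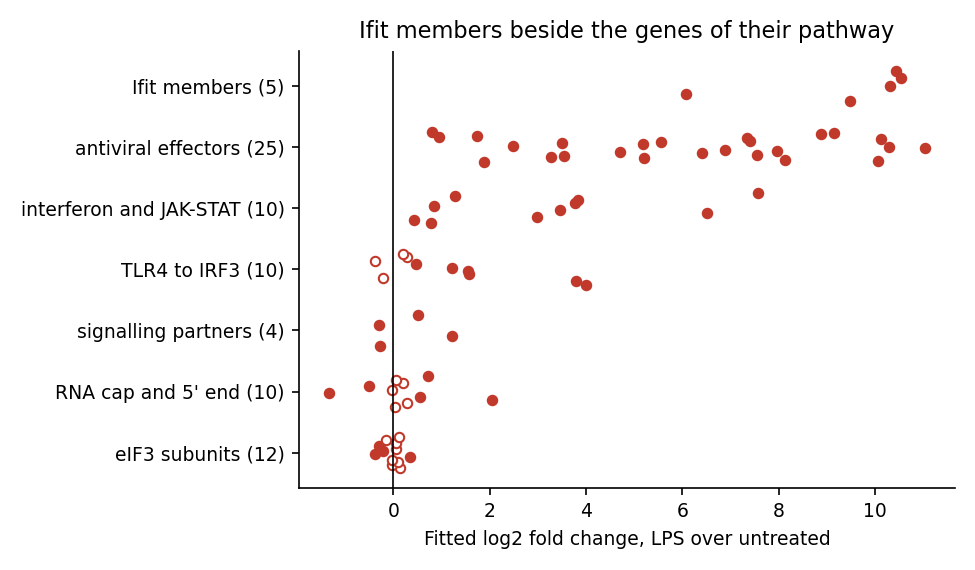
Fitted log2 fold change, LPS over untreated, of the 5 Ifit members and of each tested gene in 6 lists, with the number of tested genes in parentheses. Filled points passed the edgeR test and open points did not. Points of genes without untreated reads, among them Ifit3b and Ifit1bl1, depend on the prior count of the fit and cannot be ranked against the others. The antiviral and JAK-STAT genes lie right of 0, as do the Ifit members, and the eIF3 subunits lie close to 0.

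Of 10 tested genes of the RNA cap and 5′ end, where IFIT proteins bind, 3 rose, 2 fell and 5 did not pass, shares close to the 26.6% higher and 25.3% lower over all genes tested. The counts were 1 and 4 with scaling by library size alone, and the median log2 fold change in the fit used was 0.12. Dcp2, a decapping enzyme gene, was at 167 ± 20.2 CPM after LPS and 40.6 ± 2.57 CPM untreated (log2 fold change 2.04, SE 0.115, edgeR adjusted p = 8.1e-21). Dusp11, which encodes an RNA 5′-triphosphatase, rose 1.46-fold and Xrn1, a 5′ exonuclease gene, 1.65-fold. Neither passed with scaling by library size alone (edgeR adjusted p = 0.136 and 0.0987), and Xrn1 also missed with DESeq2 (adjusted p = 0.0644) and without LPS replicate 1. Dxo, which encodes a decapping enzyme for faulty caps, fell, with 4.74 ± 1.13 CPM after LPS and 11.9 ± 3.11 CPM untreated (log2 fold change -1.33, SE 0.305). Cmtr1, which encodes an enzyme adding the 2′-O-methyl group that caps bound by IFIT1 lack, was named after its values were seen. With 3 and 9 reads after LPS and 4 and 4 untreated it could not be tested.

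Of 12 tested eIF3 subunit genes, 1 rose, 3 fell and 8 did not pass, against 26.6% higher and 25.3% lower over all genes tested. The median log2 fold change was 0.020, or -0.34 with scaling by library size alone, when 10 were lower and none higher. Eif3e was at 302 and 321 CPM after LPS and 258 and 231 CPM untreated (log2 fold change 0.35, SE 0.088, edgeR adjusted p = 0.00077). Scaled by library size only, the log2 fold change was -0.0094. Eif3i, Eif3g and Eif3f were lower by log2 fold changes of -0.29, -0.22 and -0.39, and with DESeq2 these 3 calls were lost (adjusted p = 0.0775, 0.151 and 0.299). Without untreated replicate 1 the count of subunits called was 1, and without untreated replicate 2 it was 0. The call of Eif3f was also lost without LPS replicate 2, with another size factor scaling and with a replicate term, and that of Eif3g without LPS replicate 1.

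Among 4 genes whose proteins meet IFIT proteins in innate signalling, 2 rose and 2 fell, against 26.6% higher and 25.3% lower over all genes tested. Tomm70a, the mitochondrial import receptor that human IFIT3 contacts in the MAVS pathway, was at 424 ± 1.51 CPM after LPS and 298 ± 19.9 CPM untreated, 1.42-fold. With library size alone its call was lost (edgeR adjusted p = 0.18). The fourth, Tbk1, is given above. Mavs and Tmem173, which encodes STING, were lower by log2 fold changes of -0.28 and -0.29 (SE 0.108 and 0.122, edgeR adjusted p = 0.0274 and 0.043). With DESeq2 both calls were lost (adjusted p = 0.167 and 0.235), as they were without either untreated replicate or without LPS replicate 2. That of Tmem173 was also lost without LPS replicate 1 and with a replicate term.

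The 5 other genes whose pattern lay nearest to the family's mean were Oasl2, Usp18, Parp14, Isg15 and Ifi203. The measure was the root mean square distance over the 4 libraries between log2(CPM + 1) profiles, each centred on its own mean. It was 0.0344 for Oasl2, 0.0995 for Usp18, 0.121 for Parp14, 0.196 for Isg15 and 0.245 for Ifi203. The members themselves lay farther from their mean, from 0.419 for Ifit2 to 0.823 for Ifit3. With 2 groups of 2 libraries this likeness rests largely on the size of the change on this scale. Because 1 is added to each CPM, that size follows the level after LPS, not the fold, for genes near 0 CPM untreated. The CPM are not divided by gene length.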

How the data were processed

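Directional libraries were made after ribosomal RNA was removed, per the labels' protocols, which name hMSCs as the lysed cells although the organism field is mouse, and were read as 101-base pairs, per the series' design text. Tools listed in the submitters' processing notes are STAR 2.5.1, Trimmomatic 0.33, CASAVA 1.8.2 and DESeq2, with hg19 as build, and no annotation is named. The deposited files hold raw counts for each gene and library in 3 strand columns, laid out as STAR writes them. Reads placed at several positions (10.1% to 10.6% of reads) have a line of their own in the deposited counts and are in no gene's count, so reads that near-identical copies share are missing.

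The reverse-strand column was used, which held 78.7 to 95.3 times as many gene reads as the forward-strand column, and 4 summary lines were left out. Of uniquely placed reads 59.1% and 57.4% in the LPS libraries fell in no feature, against 53.0% and 51.8% in the untreated ones. Unmapped reads were 23.02% and 24.25% in LPS and 19.03% and 20.69% in untreated libraries. Genes passing edgeR's expression filter (9992 of 12982 with any count) were scaled by TMM. The TMM factors were 0.888 and 0.88 in LPS and 1.163 and 1.101 in untreated libraries. These genes were tested with edgeR 4.0.16 in R 4.3.3 by its robust two-sided quasi-likelihood test with treatment in the design. Genes were called at p below 0.05 after Benjamini-Hochberg adjustment over all of them. SE is the absolute log2 change over the root of F. It understates counting error where a large change rests on few untreated reads, as for Ifit1 and Fas. The fit was tested on simulated data. CPM are counts relative to the TMM-scaled library, and a floor of 3 reads covers the untreated group.

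Windows and coding identity come from GENCODE vM21 transcripts and promoters from RefSeq, in which the 5 members matched, with Biopython 1.88 for alignment. No genome sequence was searched, so copies outside annotated transcripts are not covered. The named genes are the members, up to 4 called genes per list by smallest p, Ifnb1, Irf3, Stat2, Irf9, Irf7, the locus neighbours and the 5 nearest patterns, and 1 gene that the rule names is not reported here. Outside the rule, Spi1 was named as the targeted gene, and P2ry12, Tmem119, Kdr, Vwf and Pecam1 as cell markers. Also outside it, Ticam1 and Ifnar2 were named for calls that were lost, and Cmtr1 and Tmem119 after their values were seen. Members and lists were chosen with earlier results of these data known. The alternatives were RLE, upper quartile and library-size scaling, DESeq2 1.42.0, 2 other filters, unstranded counts, a replicate block, each library left out, and 5 abundant entries (Rn45s, Lars2, Mir6236, Rmrp, Rpph1) left out.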

Additional observations from a re-analysis of the deposited data

Results flagged for a closer look

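The forward-strand column, which holds reads antisense to each gene and is used in no comparison above, held reads for 3 members after LPS, with at most 1 such read for a member in each untreated library. Ifit2 had 17 and 41 such reads in LPS replicates 1 and 2, against 1 and 0 untreated, Ifit1 had 10 and 13, against 0 and 0, and Ifit3 had 2 and 4, against 0 and 0. As a share of the stranded reads of the gene, Ifit2 reached 1.32% and 2.85% after LPS (95% exact intervals 0.773 to 2.11% and 2.05 to 3.85%). The same share over all genes was 1.04% and 1.26% in those libraries, which the interval of Ifit2 included in replicate 1 and not in replicate 2. These intervals cover counting error only, since reads are not independent molecules. Ifit1 stood at 0.652% and 0.727% and Ifit3 at 0.167% and 0.274%, each below the share over all genes in its library. The interval of Ifit1 included that share in replicate 1 (0.313 to 1.2%) and ended just below it in replicate 2 (0.388 to 1.24%). Untreated shares rest on at most 36 reads per gene and could not show a difference.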

How the results depend on the processing

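The log2 fold changes of the 5 members kept their direction and their call under the 13 alternatives, 65 values in all. They ranged from 9.07 to 10.12 for Ifit1, 5.72 to 6.16 for Ifit2, 9.96 to 10.70 for Ifit3, 10.27 to 10.68 for Ifit3b and 10.16 to 10.59 for Ifit1bl1, and the highest adjusted p of any was 7.4e-11. Fitted values of Ifit3b and Ifit1bl1 depend on the prior count. The mean shares of family reads after LPS moved by less than the spread between libraries with unstranded counts.

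DESeq2 called 3324 genes, against 5186 with edgeR, 3 genes of the cap list, 1 eIF3 subunit and 2 signalling partners, and the cause was not tested. With library size alone 10 eIF3 subunits were called, and over all genes 1379 were higher and 4778 lower, as against 2659 and 2527, with a median log2 fold change of -0.36. With the upper quartile 2222 were higher and 3056 lower. Leaving out each library in turn gave 0 to 4 eIF3 subunits and 2 to 3 signalling partners. Libraries of the same replicate number shared little deviation (correlation across genes -0.0435). With 2 libraries a group this cannot show whether they were prepared in pairs. The replicate block called 5170 genes, against 5186 without it. Untreated depth limits the folds of Ifit1, Ifit3, Ifit3b and Ifit1bl1.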
